A study of Mus musculus with 12 samples.

Results

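Germ cells leave mitosis and enter meiosis under the control of a small set of genes, and 9 of them are described here: Stra8, Meioc, Ythdc2, Dazl, Sohlh1, Sohlh2, Kit, Zbtb16 and Dmrt1. Retinoic acid, made in the testis from vitamin A, switches on Stra8, whose protein works with MEIOSIN to activate the genes of early meiosis. MEIOC and YTHDC2 act together on RNA to end the mitotic programme, and DAZL binds messenger RNAs to license germ cells for differentiation. Before that step, spermatogonia (the mitotic germ cells) use the transcription factors ZBTB16, SOHLH1, SOHLH2 and DMRT1 and the receptor KIT to stay undifferentiated, to differentiate or to hold back meiosis.

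The question was whether transcription still initiated at these early genes as spermatocytes moved through prophase I, the long first stage of meiosis. The data are 3 lists of dREG peaks from leChRO-seq, a run-on assay that labels and sequences RNA still held by engaged RNA polymerase. dREG is a machine-learning caller that finds places where run-on reads look like transcription initiation and gives each peak a score, which has no unit and rises with the strength of that pattern. The cells came from testes of adult wild-type mice and were enriched with STAPUT, which separates cells by size and density, into leptonema/zygonema (chromosomes condense and begin to pair), pachynema (homologues are fully paired) and diplonema (pairing is undone). The study's methods name the C57Bl/6J and DBA/2J backgrounds without saying which was used for these libraries, and they describe the fractions as enriched but not pure. Its Methods name earlier or later germ cells as possible contaminants, and its Results name elongated spermatids as most of the contamination. There were 4 libraries per substage, 12 in all. Each substage has 1 peak list, named as merged from all its libraries, and so no replicate spread. For this reason no test was made between substages, and every comparison between them is a description of 3 lists.

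The leptonema/zygonema list held 71107 peaks, the pachynema list 68352 and the diplonema list 38603, with median dREG scores of 0.586, 0.572 and 0.532. The lists carry no read counts, so the reads behind a call cannot be given, and the library normalization factors that the study lists were not taken as depths. A gene without a call is not shown to be inactive, since calling depends on depth. Scores are not scaled between lists, so the highest score of each of the 9 genes in a list is given with its percentile among the peaks of that list. Where a series of scores follows the order leptonema/zygonema, pachynema and then diplonema without percentiles, each value stands for its own list and their differences are not measured changes. A gene was called when the edge of a peak was under 1000 bp from any of its transcription start sites (TSSs) in GENCODE M21, and this rule found the peaks of all 9 genes among 21938 protein-coding genes. Positions are on mm10 (GRCm38).

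All 9 genes had a proximal call in leptonema/zygonema and again in pachynema, and 6 of the 9 had one in diplonema. The shares of all protein-coding genes with such a call were 60.2%, 60.5% and 51.6% in the same order (95% Wilson intervals 59.5 to 60.8%, 59.8 to 61.1% and 51 to 52.3%, which cover the counting of genes only). The genes without a diplonema call were Stra8, Sohlh1 and Sohlh2, that is 3 of the 9 called in both earlier lists, against 13.2% of all genes called in both. Those called in all 3 substages were Meioc, Ythdc2, Dazl, Kit, Zbtb16 and Dmrt1, a state shared by 49.5% of protein-coding genes. None of the 9 was called in leptonema/zygonema only, against 2.91% of protein-coding genes. Among genes called in leptonema/zygonema, 94.7% kept a call in pachynema and 82.7% in diplonema, so the diplonema count of 6 of 9 lay between the share of all genes called there and the share kept from leptonema/zygonema.

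By the highest dREG score under 1000 bp from a TSS, the genes followed 4 courses across the lists. Meioc, Ythdc2 and Dazl stayed in the upper quintile of each list, Zbtb16 stayed between the 66.2 and 74.4 percentiles, and Kit and Dmrt1 were in the upper quintile in the earlier substages and in the lowest in diplonema. Stra8, Sohlh1 and Sohlh2 stood at the 65.0, 75.6 and 50.1 percentiles in leptonema/zygonema, lower in pachynema, and were not called in diplonema. These lower values for Stra8 and Sohlh2 depended on which peaks were counted. Over a TSS only, Stra8 scored 0.599 and 0.58 (percentiles 51.3 and 50.9) and Sohlh2 scored 0.435 and 0.468 (percentiles 30.1 and 36.7), so for Sohlh2 the order turned, as it did with peak edges under 500 bp (0.494 and 0.508, percentiles 38.9 and 42.1). A highest score of at least 0.5 was reached by 9, 9 and 4 of the 9 genes in the 3 lists in order, against 54.2%, 53.8% and 42.5% of protein-coding genes. The median of the highest scores was 1.014 for the 9 genes in leptonema/zygonema, 0.999 in pachynema and 0.854 for the 6 called in diplonema. Over all called genes it was 1.048, 1.03 and 0.8345 in the same order, so the set as a whole did not stand high among called promoters. The percentiles above are among all peaks of a list, not among called genes. Of the 13272 genes called in pachynema, 7759 had a highest score in the upper quintile of peaks. Among the highest scores of all called genes, Meioc stood at percentiles 58.5, 78.3 and 73.8 in the same order. Ythdc2 stood at 61.9, 89.9 and 83.4, and Dazl at 45.9, 72.7 and 93.9. Kit and Dmrt1 stood at 48.6 and 53.2 in leptonema/zygonema and at 46.8 and 54.1 in pachynema.

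**Figure D1:**
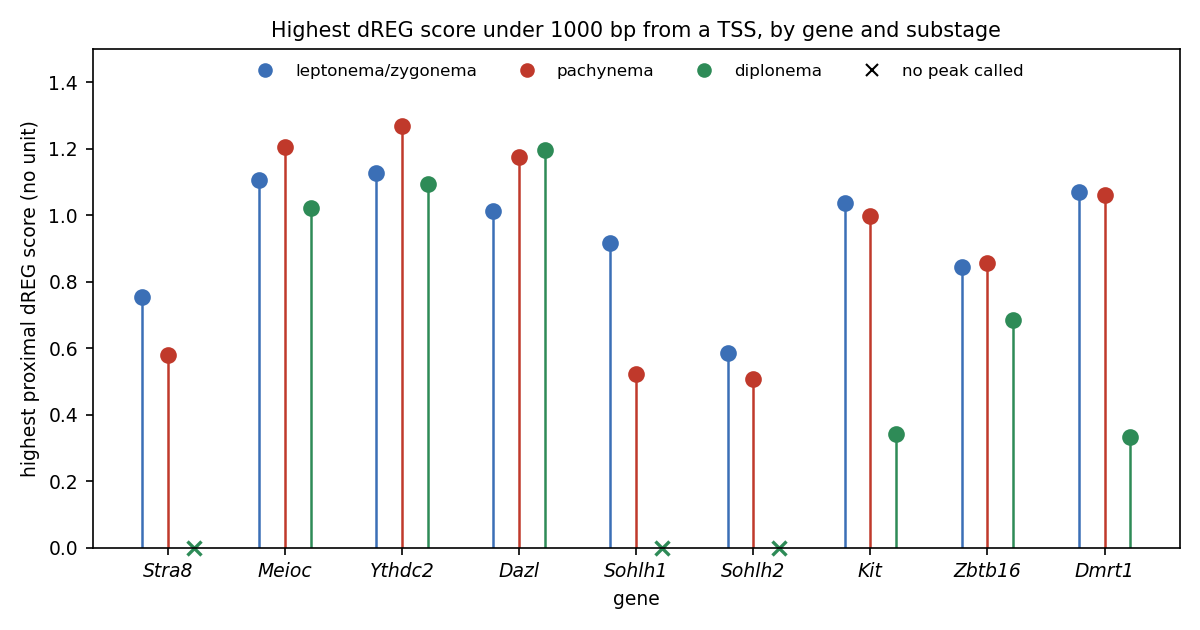
Highest dREG score (no unit) among peaks under 1000 bp from a TSS of each of the 9 genes, with 1 point per substage and a cross where no peak was called. Meioc, Ythdc2 and Dazl are above 1 in every substage, and Stra8, Sohlh1 and Sohlh2 have no diplonema call. In diplonema Kit, by its intron 1 peak, and Dmrt1 have 0.343 and 0.332 (percentiles 16.8 and 14.1 of that list). Scores are not scaled between lists, so differences between substages are not measured changes.

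Stra8 (ENSMUSG00000029848.11, plus strand, chr6:34920163-34939344) encodes the retinoic acid target that acts as a transcription factor at meiotic entry. In leptonema/zygonema a peak at chr6:34920631-34921020 (dREG score 0.599) covered its inner TSSs and a second at chr6:34921851-34922510 lay in intron 2 (0.755, percentile 65.0). In pachynema the same places held peaks of 0.58 (percentile 50.9) and 0.48. In diplonema no peak lay near the gene. The nearest one was 9083 bp upstream of the gene (0.874), and Wdr91 was the gene closest to it. The intron 2 peak entered the count narrowly, since its edge was 841 bp from a TSS in leptonema/zygonema and 821 bp in pachynema. The promoter window of RefSeq (GRCm38.p6, chr6:34920698-34920997, plus strand, from 250 bases before to 50 after the start) lay inside the leptonema/zygonema peak and is shown because retinoic acid receptors bind repeats of the letters AGGTCA, in capitals:
Stra8: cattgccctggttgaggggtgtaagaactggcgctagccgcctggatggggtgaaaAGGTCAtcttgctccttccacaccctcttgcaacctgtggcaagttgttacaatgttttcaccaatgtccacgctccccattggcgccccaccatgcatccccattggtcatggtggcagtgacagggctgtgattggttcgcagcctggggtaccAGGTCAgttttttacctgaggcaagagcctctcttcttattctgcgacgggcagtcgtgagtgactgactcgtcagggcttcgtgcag
These letters stood at positions -194 and -38 from the RefSeq start, as separate single matches and not side by side. Whether a receptor binds them was not tested. Searched on both strands, AGGTCA was present in 14.7% of 21263 promoter windows of this length and at least 2 times in 1.44%. The cut of 2 equals the count in the Stra8 window, so the 1.44% is a description only.

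Sohlh1 (ENSMUSG00000059625.6, minus strand, chr2:25842995-25847248) and Sohlh2 (ENSMUSG00000027794.4, plus strand, chr3:55182028-55209957) encode partner basic helix-loop-helix factors of spermatogonial differentiation. At Sohlh1 a single proximal peak covered the TSS, with a dREG score of 0.917 (percentile 75.6) at chr2:25847201-25847560 in leptonema/zygonema and 0.522 (percentile 43.9) at chr2:25847181-25847670 in pachynema. At Sohlh2 the peak over the TSS scored 0.435 in leptonema/zygonema and 0.468 in pachynema, and peaks farther into intron 1 reached 0.587 (percentile 50.1) and 0.508 (percentile 42.1). These were the lowest highest scores of the 9 genes in both substages. In diplonema the nearest peak was 61378 bp from the Sohlh1 TSS and 41708 bp from the Sohlh2 TSS. The promoter windows (GRCm38.p6, chr2:25847199-25847498, minus strand, and chr3:55181794-55182093, plus strand) are shown because basic helix-loop-helix factors bind E-boxes such as CACGTG. Capitals mark CACGTG and an overlapping AGGTCA at Sohlh1, and CNCCTCAG, a sequence bound by STRA8, at Sohlh2:
Sohlh1: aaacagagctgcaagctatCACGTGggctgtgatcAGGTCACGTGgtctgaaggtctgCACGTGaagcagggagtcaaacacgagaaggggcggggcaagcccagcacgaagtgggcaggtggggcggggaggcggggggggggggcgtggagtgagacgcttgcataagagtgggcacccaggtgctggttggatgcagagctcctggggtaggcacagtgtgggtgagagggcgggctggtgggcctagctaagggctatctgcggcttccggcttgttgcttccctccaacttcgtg
Sohlh2: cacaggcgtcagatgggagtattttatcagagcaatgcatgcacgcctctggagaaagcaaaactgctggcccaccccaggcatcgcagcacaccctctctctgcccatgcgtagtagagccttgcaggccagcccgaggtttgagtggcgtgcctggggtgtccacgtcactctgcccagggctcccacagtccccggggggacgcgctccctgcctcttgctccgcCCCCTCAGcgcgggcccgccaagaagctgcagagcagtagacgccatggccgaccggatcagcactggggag
Sohlh1 held CACGTG at positions -231, -211 and -192, and AGGTCA at -215 ran into the second of them. CACGTG was in 7.84% of all promoter windows, and 23 windows (0.108%) held it at least 3 times. That repeat count was made after the Sohlh1 matches had been seen. Sohlh2 held CNCCTCAG at position -22, and 8.52% of all windows held these letters.

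Meioc (ENSMUSG00000051455.13, plus strand, chr11:102663716-102682237) encodes the partner of YTHDC2 that keeps germ cells in the extended meiotic prophase. Of its 3 annotated TSSs, 1 lies upstream and the others, at 102665588 and 102665623, are close together. The peak over that pair scored 1.107 (percentile 86.3) in leptonema/zygonema, 1.206 (percentile 94.3) in pachynema and 1.023 (percentile 90.6) in diplonema. The peak over the upstream TSS at position 102663716 scored 1.048 in leptonema/zygonema and 0.686 in pachynema, and diplonema had none there. The number of proximal peaks was 7, 4 and 2 in the same order, and all of the later ones overlapped leptonema/zygonema peaks.

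Ythdc2 (ENSMUSG00000034653.11, plus strand, chr18:44827746-44889724) encodes an RNA helicase that binds N6-methyladenosine, the most common internal mark of messenger RNA. Its highest peak scored 1.129 (percentile 87.5) in leptonema/zygonema, 1.27 (percentile 97.3) in pachynema and 1.096 (percentile 94.3) in diplonema, the highest of the 9 genes in the first 2 lists. No peak covered the GENCODE TSS, from which this peak was 375 bp away in leptonema/zygonema, 325 bp in pachynema and 405 bp in diplonema. Diplonema also had a weak peak nearer to that TSS, at chr18:44827941-44828130 (0.315, percentile 9.86), which met the earlier peaks only at its 3′ edge and whose centre lay in no peak of either earlier list. RefSeq places further starts at 44828485 and 44828665, and both lay inside the peak in all 3 substages. A second peak in intron 1, just past the 1000 bp limit at 1075, 1065 and 1025 bp, scored 1.033, 1.014 and 0.985.

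Dazl (ENSMUSG00000010592.9, minus strand, chr17:50279395-50293636) encodes a germ-cell RNA-binding protein that promotes translation of its targets. The peak over its 5′ TSSs scored 1.014 (percentile 81.0) in leptonema/zygonema, 1.176 (percentile 92.8) in pachynema and 1.196 (percentile 98.0) in diplonema. Dazl was the only 1 of the 9 whose rank among peaks was higher in diplonema than in pachynema, as it was for 23.1% of all genes called in the earlier substages. A peak over its internal TSS at 50292892, in intron 1 of the main transcript, was present in every list at 0.793, 0.809 and 0.694. From leptonema/zygonema to pachynema, 6 of the 9 had a higher rank, against 57.3% of all genes called in both.

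The Meioc and Dazl promoter windows (GRCm38.p6, chr11:102665335-102665634, plus strand, and chr17:50293571-50293870, minus strand) lay inside a peak in all 3 substages, and they are shown beside those of Stra8, Sohlh1 and Sohlh2 for their base composition. Capitals mark a match to CNGTTG, the core of MYB sites, on the minus strand of Meioc, and a match to CNCCTCAG in Dazl:
Meioc: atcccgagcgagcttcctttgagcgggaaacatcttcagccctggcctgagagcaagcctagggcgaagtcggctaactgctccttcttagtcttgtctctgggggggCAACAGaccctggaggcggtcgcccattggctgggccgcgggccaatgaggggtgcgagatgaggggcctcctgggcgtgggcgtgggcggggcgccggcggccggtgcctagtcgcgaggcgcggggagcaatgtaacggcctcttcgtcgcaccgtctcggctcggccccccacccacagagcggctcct
Dazl: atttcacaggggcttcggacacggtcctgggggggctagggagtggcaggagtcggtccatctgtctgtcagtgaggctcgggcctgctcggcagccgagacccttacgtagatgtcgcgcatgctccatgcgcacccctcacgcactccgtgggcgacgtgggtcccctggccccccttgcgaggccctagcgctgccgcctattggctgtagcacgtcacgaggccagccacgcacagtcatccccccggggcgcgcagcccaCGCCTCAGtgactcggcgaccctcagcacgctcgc
GC content was 68.3% for Meioc and 68.7% for Dazl, with observed over expected CpG of 0.805 and 0.795. The windows of the genes without a diplonema call had 55.7% and 0.43 for Stra8, 63.3% and 0.525 for Sohlh1, and 64.7% and 0.545 for Sohlh2. The medians over all windows were 56.3% and 0.567. The CpG ratios of Meioc and Dazl were above the median of all windows (percentiles 72.5 and 71.3) and that of Stra8 below it (41.3). Those of Sohlh1 and Sohlh2 were just below it (47.1 and 48.5), while their GC content was above the median (percentiles 71.1 and 74.7). Ythdc2, Zbtb16 and Dmrt1, also called in diplonema, had no window, so no contrast by diplonema call is drawn. The Kit window had 69% GC, a ratio of 0.621 and none of the letters searched. CNGTTG was in 34.1% of all windows and TATAAA, the TATA box, in 12.6% of all and in none of the 6 windows of these genes.

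**Figure D2:**
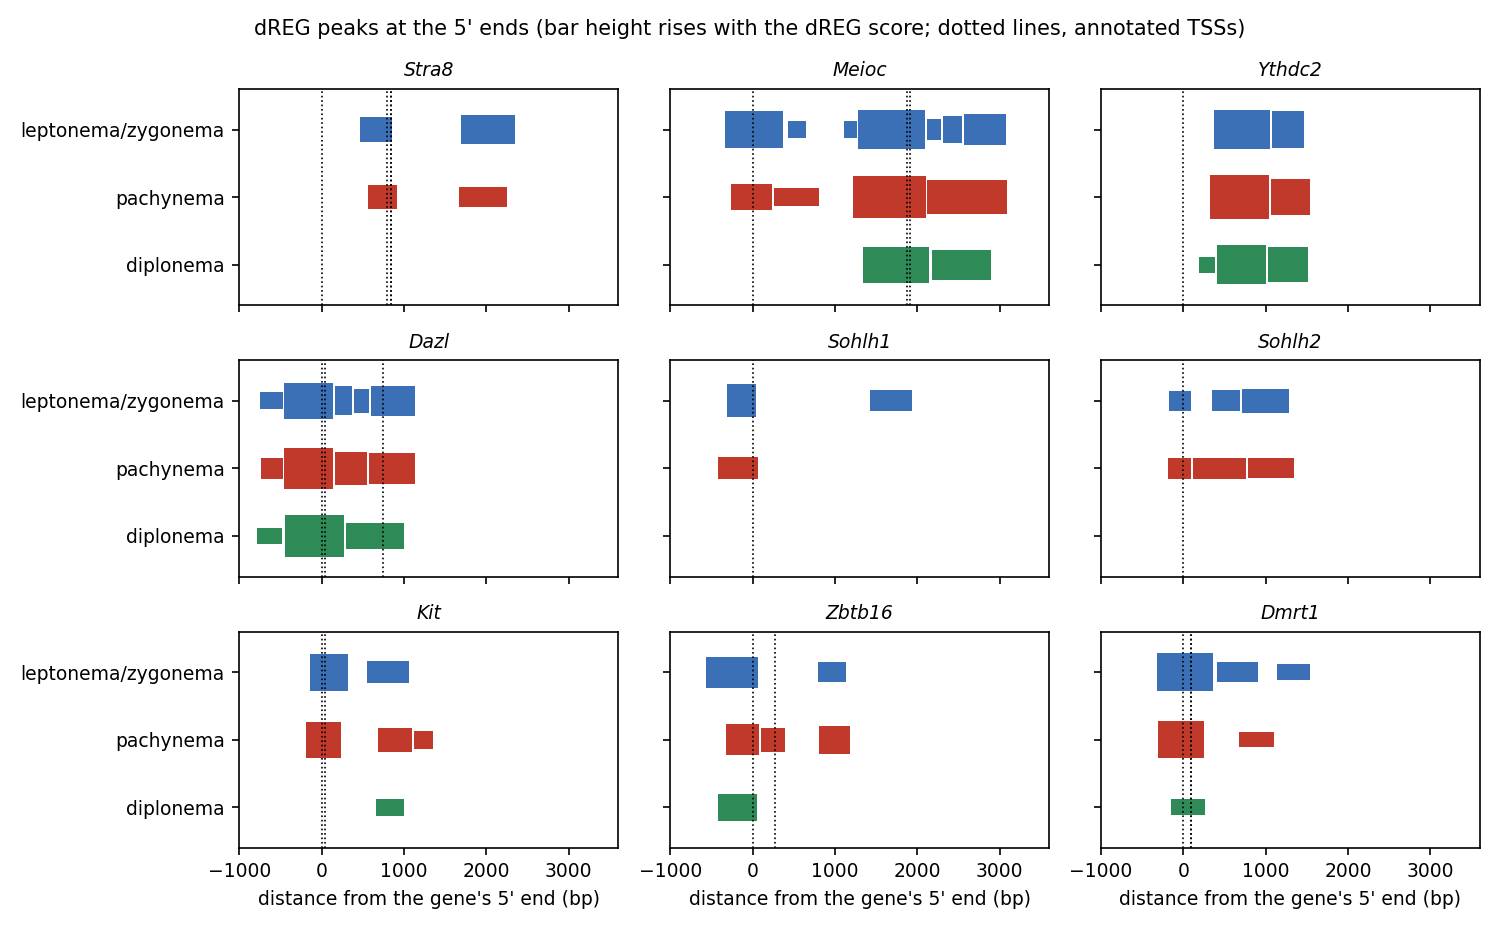
Peaks of the 9 genes from 1000 bp before the 5′ end of the gene into its first kilobases, along the direction of transcription, with 1 bar row per substage, bar height rising with the dREG score and dotted lines at annotated TSSs. Meioc, Ythdc2 and Dazl hold bars in every row, the upstream Meioc peak is missing from the diplonema row, and Stra8, Sohlh1 and Sohlh2 have an empty diplonema row.

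Kit (ENSMUSG00000005672.12, plus strand, chr5:75574916-75656722) encodes the receptor for KIT ligand, which differentiating spermatogonia need. The peak over its 5′ TSS was at chr5:75574771-75575230 in leptonema/zygonema (dREG score 1.037, percentile 82.3) and at chr5:75574721-75575150 in pachynema (0.999, percentile 82.9), and diplonema had no peak there. The diplonema call of Kit rested on a weaker neighbour in intron 1, which scored 0.546 in leptonema/zygonema, 0.602 in pachynema and 0.343 (percentile 16.8) in diplonema. RefSeq starts at 75575743 and 75575752 lay inside that neighbour in all 3 substages. Kit also had a peak far inside the gene, in intron 16, over the starts at 75649094 and 75649193 of 2 transcripts annotated as retained introns. It scored 0.958 (percentile 77.9) in leptonema/zygonema and 0.664 (percentile 59.3) in pachynema, and diplonema had none. A truncated KIT protein made in spermatids is known to be transcribed from a promoter in this intron, and 300 bases of the peak (GRCm38.p6, chr5:75648966-75649265, plus strand) are shown for that reason, with AGGTCA in capitals:
Kit intron 16: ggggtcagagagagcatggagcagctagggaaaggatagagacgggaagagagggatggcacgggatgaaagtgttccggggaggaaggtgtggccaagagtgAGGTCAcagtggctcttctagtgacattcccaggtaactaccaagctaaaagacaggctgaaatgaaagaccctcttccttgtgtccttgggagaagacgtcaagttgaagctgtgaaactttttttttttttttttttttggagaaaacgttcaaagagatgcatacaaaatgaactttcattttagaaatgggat
This sequence had 44.7% GC, less than every promoter window printed here, and observed over expected CpG of 0.379.

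Dmrt1 (ENSMUSG00000024837.15, plus strand, chr19:25505618-25604329) encodes a DM-domain factor that holds back meiosis in spermatogonia. The peak over its TSS scored 1.071 (percentile 84.2) in leptonema/zygonema, 1.063 (percentile 86.5) in pachynema and 0.332 (percentile 14.1) in diplonema. A second peak in intron 1 scored 0.443 in leptonema/zygonema and 0.298 in pachynema, and diplonema had none. Kit and Dmrt1 thus stood in the upper quintile of the pachynema list and in the lowest of the diplonema list. Of all genes whose highest pachynema score was in the upper quintile, 0.889% had a diplonema call in the lowest, and 2.33% when genes without a diplonema call are added. These shares were computed after the Kit and Dmrt1 values had been seen.

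Zbtb16 (ENSMUSG00000066687.5, minus strand, chr9:48654297-48836222) encodes PLZF, a zinc finger repressor that maintains undifferentiated spermatogonia. The peak over its 5′ TSS scored 0.845 (percentile 71.3) in leptonema/zygonema, 0.857 (percentile 74.4) in pachynema and 0.685 (percentile 66.2) in diplonema. A peak in intron 1 scored 0.475 in leptonema/zygonema and 0.74 in pachynema. Pachynema alone had a peak over the second TSS, at chr9:48835831-48836120 with a dREG score of 0.582, and it was the only proximal pachynema peak of the 9 genes that did not overlap a leptonema/zygonema peak.

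Counted as peaks, the 9 genes had 26, 23 and 10 proximal peaks through the 3 substages. Neighbouring peaks of 1 promoter are not independent, and the whole lists shorten in the same order. All 26 leptonema/zygonema peaks overlapped a pachynema peak by at least 1 bp and 13 overlapped a diplonema peak, against 89.2% and 70.1% of the proximal leptonema/zygonema peaks of all protein-coding genes. All 10 diplonema peaks overlapped a peak of each earlier list by at least 1 bp, in 1 case, a Ythdc2 peak, only at its edge. A peak covered a TSS in 8, 8 and 4 of the 9 genes through the 3 substages (56.5%, 56.8% and 47.9% of protein-coding genes).

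Over all genes, the share of calls kept was larger where the leptonema/zygonema score was higher. Of genes called there with a highest score under 0.5, 67.8% were called in pachynema and 36% in diplonema. With a score of 0.5 or more, as for all 9 genes here, the shares were 97.6% and 87.9%. A division into quintiles of the leptonema/zygonema score was added after the data had been seen. It gave diplonema calls for 46.6% of the lowest quintile (0.261 to 0.682), 78.4% of the second (0.683 to 0.959), 92.8% of the third (0.96 to 1.116), 97.2% of the fourth (1.117 to 1.226) and 98.5% of the highest. The pachynema shares were 76.9%, 97.2%, 99.5%, 99.8% and 99.9%. Sohlh2 was in the lowest quintile. Stra8, Sohlh1 and Zbtb16 were in the second, where 1 of the 3 was called in diplonema. Meioc, Dazl, Kit and Dmrt1 were in the third and Ythdc2 in the fourth, and all 5 were called. The genes without a diplonema call were therefore those of the lowest leptonema/zygonema scores apart from Zbtb16, whose score of 0.845 was below that of Sohlh1 at 0.917.

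**Figure D3:**
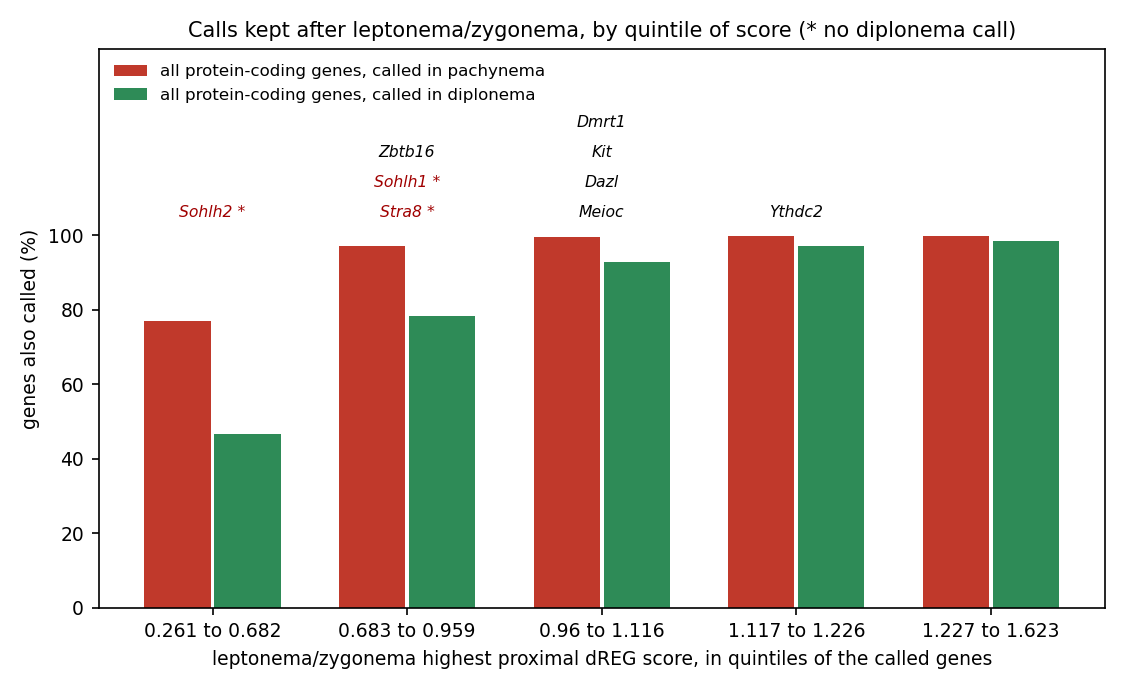
Percent of protein-coding genes called in pachynema and in diplonema, by quintiles of the highest leptonema/zygonema dREG score, with the 9 genes named above the quintile each belongs to and an asterisk for those without a diplonema call. The diplonema share runs from 46.6% in the lowest quintile to 98.5% in the highest, and the 3 genes with an asterisk stand in the lower 2 quintiles.

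Gene-body peaks, which lie in a gene and 1000 bp or more from its TSSs, numbered 8 (in 5 of the 9 genes), 7 (in 4) and 2 (in 2) through the 3 substages. Of all protein-coding genes, 28.6%, 26.9% and 15.8% had one. Per 100 kb of gene the 9 genes had 1.57, 1.38 and 0.393 such peaks, and all protein-coding genes 1.63, 1.45 and 0.666, so density was close to that of other genes except that the 2 diplonema peaks gave a lower value. Of the 8 leptonema/zygonema gene-body peaks, 4 overlapped a pachynema peak and 1 a diplonema peak, against 65.2% and 31.9% over all genes. With lists of equal size the 9 genes had 3, 1 and 2 gene-body peaks, so the order of the counts depended on the lengths of the lists.

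Kit held 3 of the 8 leptonema/zygonema peaks and 3 of the 7 pachynema peaks. A site in intron 1 about 15 kb into the gene had peaks of 0.653 and 0.446 in leptonema/zygonema and 0.457 in pachynema, and a site in intron 17 had 0.471 and 0.506. Diplonema had neither. A pachynema peak of 0.399 lay 1076 bp from a TSS, just outside the proximal limit. In Zbtb16 a leptonema/zygonema peak in intron 2 at chr9:48744171-48744950 scored 0.896 (percentile 74.4), above that of its own promoter, and had no counterpart later. The last exon of Zbtb16, exon 7, instead held peaks of 0.487 and 0.378 in pachynema and 0.255 in diplonema, all among the weaker peaks of their lists. Dmrt1 had 2 gene-body peaks in leptonema/zygonema (0.324, at 1054 bp from a TSS, and 0.464), Sohlh1 had 1 in intron 4 in leptonema/zygonema (0.497, over a RefSeq start at 25845607), and Sohlh2 had 1 in intron 5 in pachynema (0.439). The intron 1 peak of Ythdc2 described above was the only gene-body peak found in all 3 substages. Stra8, Meioc and Dazl had none.

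Outside the genes, peaks within 50 kb whose nearest protein-coding TSS was that of 1 of the 9 genes numbered 10, 17 and 10 through the 3 substages. Kit had a cluster 5 to 7 kb upstream that was called in every list, with highest scores of 0.689 in leptonema/zygonema, 0.797 in pachynema and 0.866 (percentile 80.7) in diplonema, so here the diplonema list held a stronger call than at the Kit promoter. No other annotated TSS lay near that cluster. Zbtb16 had an upstream peak, 14579 bp from the TSS in leptonema/zygonema, that scored 1.21 (percentile 92.3), 1.114 (percentile 89.3) and 0.414 (percentile 31.7). Downstream of Dazl there were 4, 9 and 6 such peaks, several of them at the transcript AY702103. Those lay some 44 kb from the nearest annotated Dazl start, which is inside the gene, at 50283323. The peak nearest to Dazl scored 0.861 in leptonema/zygonema, 0.314 in pachynema and was not called in diplonema. Which gene such a peak serves is not known from these data. With lists of equal size the distal peaks numbered 4, 6 and 10 through the 3 substages, so diplonema then had the most. No such count over all protein-coding genes is given for comparison.

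**Figure D4:**
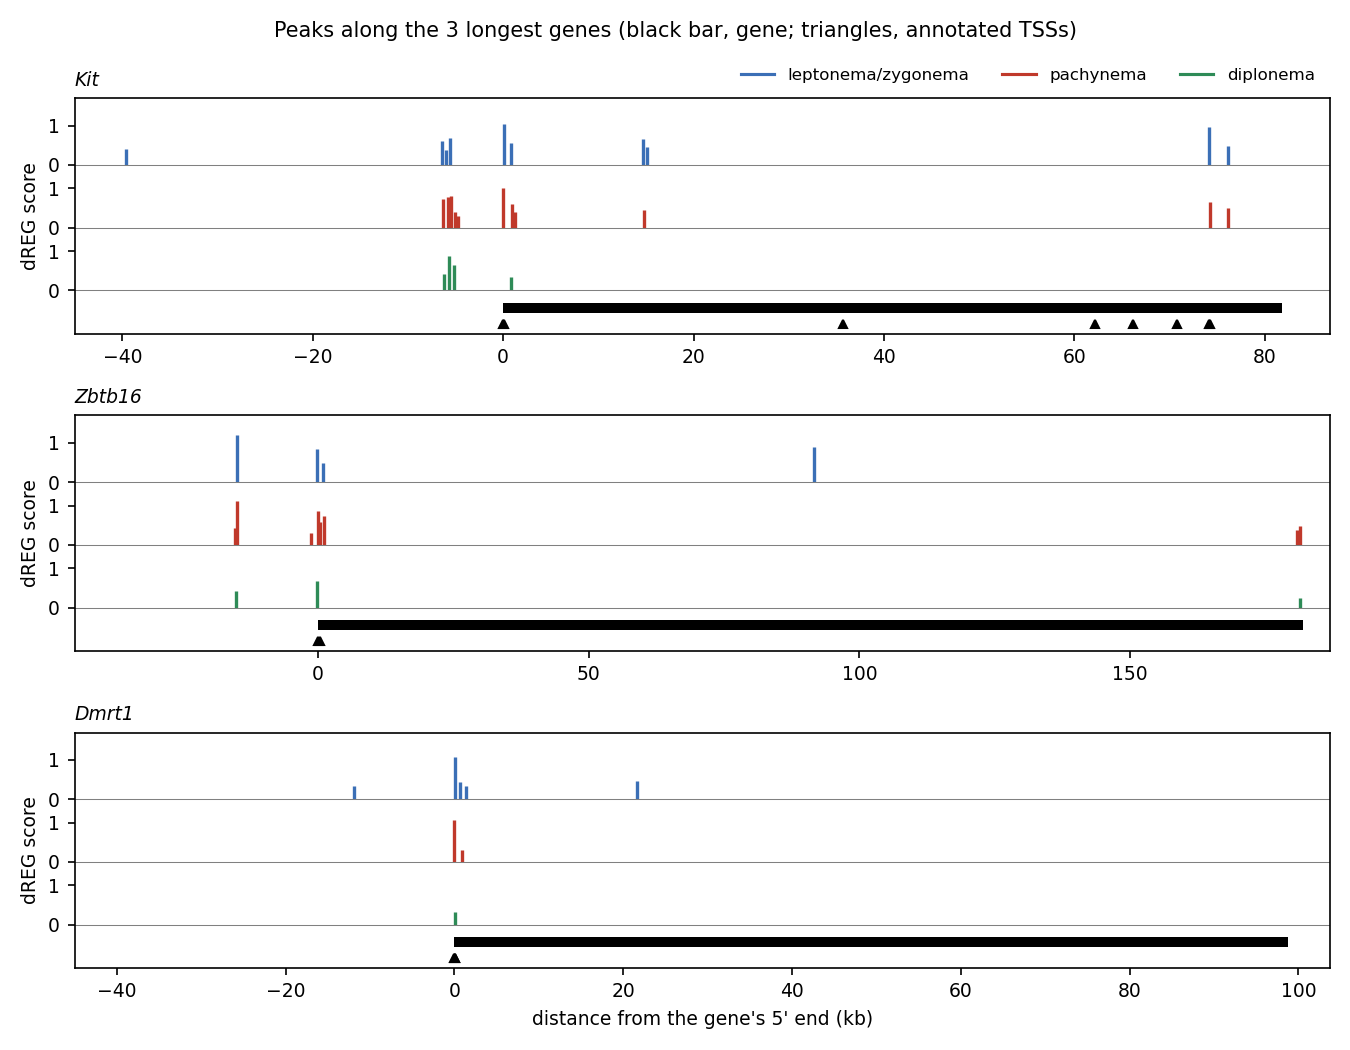
dREG scores of peaks along Kit, Zbtb16 and Dmrt1 by distance (kb) from the 5′ end of the gene, with 1 line of stems per substage, a black bar for the gene and triangles at annotated TSSs. In Kit the upstream cluster is present in every substage while diplonema lacks the stem over the 5′ TSS and the one near 74 kb and keeps only the 0.343 stem in intron 1, and the Zbtb16 stem in mid-gene is in leptonema/zygonema only.

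Other genes of the same pathways were counted by the same rule. Of 15 spermatogonial stem and progenitor cell genes, 9, 9 and 6 were called through the 3 substages. The highest leptonema/zygonema scores were those of Sall4 (1.058, then 0.86 and no diplonema call), Etv5 (1.053, 0.996 and 0.733), Id4 (1.026, 1.16 and 1.307) and Sox3 (0.928, 0.866 and 0.623). All 4 encode transcription regulators of undifferentiated spermatogonia or stem cells. Foxc2 was called in leptonema/zygonema only (0.329), Ret, a receptor for GDNF, in pachynema only (0.473) and Upp1 in diplonema only (0.344). Gfra1, Nanos2, Nanos3 and Neurog3 were not called in any list.

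Of 16 genes of retinoic acid synthesis, degradation and reception, 9, 9 and 7 were called. The receptor Rxrb scored 1.121, 1.148 and 0.883, the binding protein Crabp1 1.102 and 0.721 with no diplonema call, the synthetic enzyme Rdh10 1.095, 1.141 and 0.624, and the receptor Rxra 0.924, 0.922 and 0.686. Rarg, the receptor of differentiating spermatogonia, scored 0.704, 0.921 and 0.454. Aldh1a3 was called in leptonema/zygonema only (0.453) and Rarb in pachynema only (0.27). The degrading enzymes Cyp26a1, Cyp26b1 and Cyp26c1 were among the 6 genes not called in any list.

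Partners of the 9 proteins and factors of N6-methyladenosine or RNA decay were called in 15, 15 and 14 of 15 cases. Gm4969, the gene of MEIOSIN, scored 1.118 (percentile 86.9), 0.901 (percentile 77.2) and 0.728 (percentile 70.0), so the partner of STRA8 kept a call in diplonema while Stra8 did not. Rb1, whose protein binds STRA8, scored 1.112, 1.319 and 0.944. Rbm46, which acts with MEIOC and YTHDC2, scored 1.246, 1.218 and 1.145. Ddx4 (1.392, 1.272 and 1.094), Ythdf2 (1.388, 1.332 and 1.009), Mettl14 (1.342, 1.204 and 1.136) and Ythdf1 (1.335, 1.32 and 0.967) had the highest leptonema/zygonema scores. Ccna2, a mitotic cyclin that MEIOC and YTHDC2 are known to repress, was the 1 gene without a diplonema call (0.789 and 0.435 before it), and it is named after its values were seen.

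All 8 genes of PRC1.6, the repressor complex that keeps meiotic genes silent in other cells, were called in each list, with Max (1.279, 1.121 and 0.871), Rnf2 (1.241, 1.218 and 0.958), Cbx3 (1.191, 1.064 and 1.128) and Pcgf6 (1.184, 1.203 and 1.123) scoring highest in leptonema/zygonema. Of 14 early prophase I genes, 13 were called in each list. Rec8, the meiotic cohesin, scored 1.369 (percentile 99.0), 1.074 (percentile 87.1) and 0.292 (percentile 4.74), a course like that of Kit and Dmrt1. Meiob (1.317, 1.276 and 1.382), Hormad1 (1.293, 1.324 and 1.328) and Sycp1 (1.245, 1.242 and 1.247) had percentiles of 94.3 or more in every list.

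**Figure D5:**
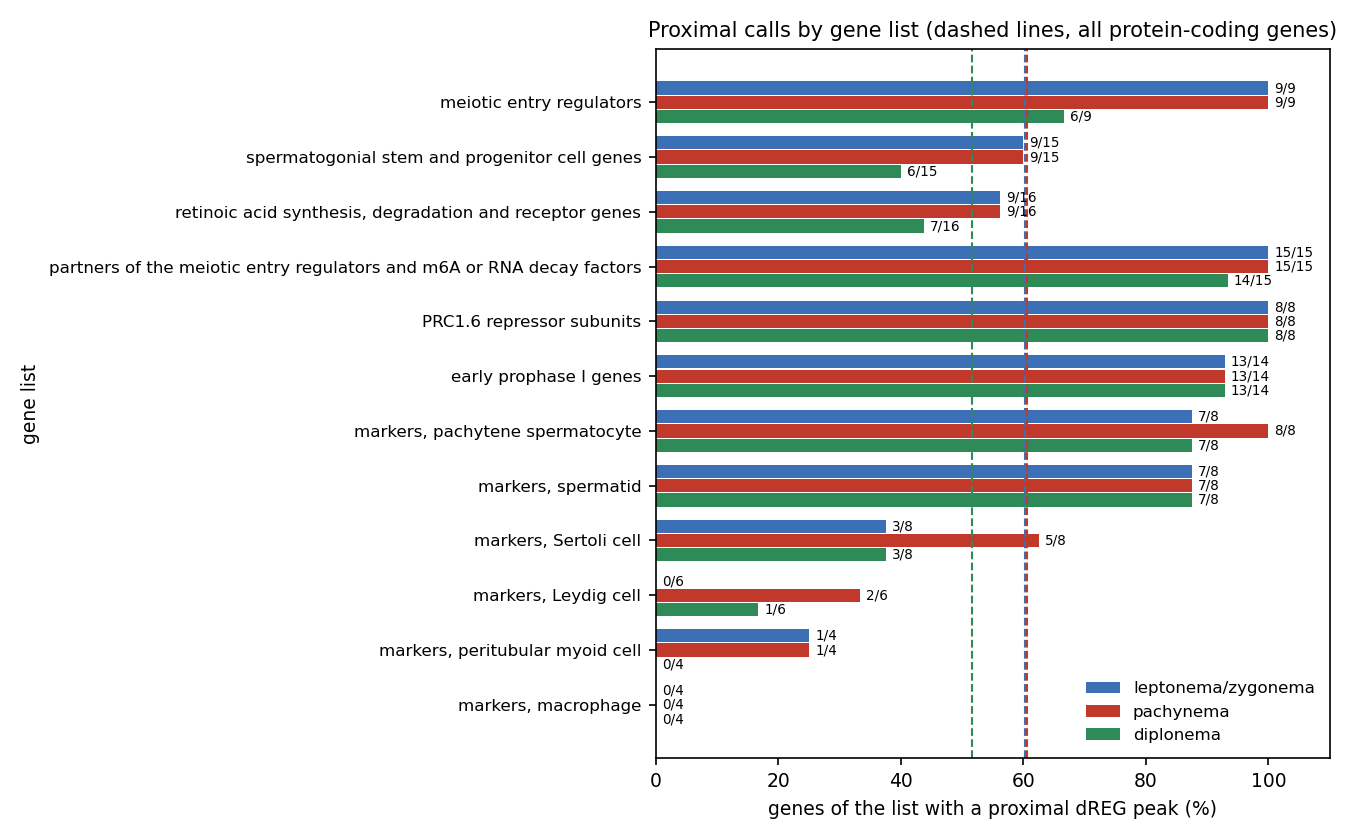
Percent of the genes of each list with a proximal dREG peak in each substage, with the counts at the bar ends and dashed lines at the share of all protein-coding genes (60.2%, 60.5% and 51.6%). PRC1.6, early prophase I and partner genes are called nearly throughout, while spermatogonial and retinoic acid genes lie near or below the dashed lines.

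Markers of cells that the fractions could hold were counted as well, because spermatogonia and somatic cells express some of the 9 genes: Sertoli cells make DMRT1 and Leydig cells make KIT. The highest scores of each marker list were also summed, with uncalled genes at 0, so a sum follows the number of calls and is not compared between substages. Pachytene spermatocyte markers were called in 7, 8 and 7 of 8 cases and summed to 6.973, 8.089 and 6.941. Spermatid markers were called in 7 of 8 in every list and summed to 7.075, 6.8 and 6.223, so calls at spermatid genes were present already in leptonema/zygonema. Prm1 and Prm2 shared 1 peak in each list. Sertoli cell markers were called in 3, 5 and 3 of 8 and summed to 1.67, 3.116 and 1.357. Gata4 scored highest among them in leptonema/zygonema and pachynema (0.925 and 0.946, then 0.482) and Sox9 in diplonema (0.385, 0.652 and then 0.564). Inha was called in the first 2 lists (0.36 and 0.415), Wt1 in pachynema and diplonema (0.408 and 0.311) and Cldn11 in pachynema (0.695). Amh, Fshr and Rhox5 were not called in any list. Leydig cell markers were called in 0, 2 and 1 of 6, with no score above 0.414, peritubular myoid cell markers in 1, 1 and 0 of 4, with no score above 0.422, and macrophage markers in 0 of 4. The part of any such cells, or of left-over spermatogonia, in the calls at the 9 genes was not tested.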

How the data were processed

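The processing that the authors describe began with molecular identifiers, by which PRINSEQ lite dropped PCR copies. After adapter trimming in cutadapt, BWA alignment used mm10 plus 1 copy of the ribosomal RNA transcription unit. They reduced each read to the base at the polymerase active site and ran dREG with default settings. That the libraries of a substage were merged for this step is read from the names of the deposited peak lists. The labels describe single-end and the methods paired-end sequencing, and the dREG version is not given in the sources used here. The deposited score of each peak is the caller's own value with no fixed range, and the deposited p-value, all under 0.05, was used only as a filter. No read counts were used.

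Peaks were taken at their deposited positions, counted from 1, on 21 chromosomes. A proximal peak had its edge under 1000 bp from a GENCODE M21 TSS of the gene, a gene-body peak overlapped the gene by at least 1 bp and lay farther from its TSSs, and a distal peak lay within 50 kb and had that gene's TSS as its nearest protein-coding one. Percentiles of scores are the share of peaks of the same list with a lower score or, where called genes are named, the share of those genes. Promoter windows of RefSeq were found for 6 of the 9 genes, and Ythdc2, Zbtb16 and Dmrt1 are named only. RefSeq TSSs came from the RefSeq annotation of GRCm38.p6 by gene symbol. Letters were searched on both strands.

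The 9 genes and all lists were chosen with earlier results of these data known. Named from each other list were the 4 genes of the highest leptonema/zygonema score, those called in leptonema/zygonema only or only later, and Gm4969, Rb1, Rbm46 and Rarg. Any other gene was named after its values were seen. The rules were tested on simulated peaks. Alternatives were a score of at least 0.5, a p-value of at most 0.01, lists of equal size, other proximal, gene-body and overlap rules, and RefSeq TSSs. Analyses used Python 3.11.15, numpy 2.4.6, scipy 1.17.1 and matplotlib 3.10.9. ATAC-seq, RNA-seq and ChIP-seq data were not used here.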

Additional observations from a re-analysis of the deposited data

How the results depend on the processing

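The count of the 9 genes called in each list lay between 4 and 9 under all settings run. Of the recomputed counts that answer a comparison, 84 stayed within 1.5 times the value reported and 14 moved farther. The count called in diplonema and in all 3 substages went from 6 to 4 both with a score of at least 0.5 and where a peak had to cover a TSS. All 9 were called in leptonema/zygonema and pachynema except where a peak had to cover a GENCODE TSS (8 and 8, without Ythdc2) and with lists of equal size (8 in pachynema, without Sohlh2). Stra8, Sohlh1 and Sohlh2 had no diplonema call with RefSeq TSSs either. The other settings can only remove diplonema calls, so they say nothing about that absence. Kit was lost too with a score of at least 0.5, an edge under 500 bp or a peak over the TSS, Dmrt1 with the score filter and Ythdc2 where a TSS had to be covered. With a score of at least 0.5 there were 3, 2 and 1 gene-body and 4, 7 and 4 distal peaks through the 3 substages, and 17 of 18 leptonema/zygonema peaks overlapped a pachynema peak. With lists of equal size there were 3, 1 and 2 gene-body and 4, 6 and 10 distal peaks through the 3 substages. In those lists 15 of 17 leptonema/zygonema peaks overlapped a pachynema peak, and 1 gene, Sohlh2, was called in leptonema/zygonema only. With a p-value of at most 0.01 there was 1 gene-body peak in diplonema. These filters remove weak peaks by construction. The distal filters were added after seeing the data. With equal sizes 52.7%, 53.2% and 51.6% of protein-coding genes were called. No paired analysis was possible because the authors merged the libraries of a substage before calling. Replicates could not be left out either, and the reads behind each call are not given in the lists.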

Other observations

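The protein-coding genes nearest to Stra8 in the 3 within-list percentiles of the highest proximal score were Tmem212 (dREG scores 0.755 and 0.581), Slc35e3 (0.74 and 0.568) and Etv4 (0.742 and 0.596), all without a diplonema call. Their percentiles differed from those of Stra8 by 0.119, 2.49 and 2.69 points in sum. These sums rest on the leptonema/zygonema and pachynema lists, since neither Stra8 nor these genes had a diplonema call. Nearest to Ythdc2, the gene of the highest leptonema/zygonema score among the 9, were Stau1 (1.135, 1.267 and 1.101), Cct8 (1.125, 1.261 and 1.106) and Nfat5 (1.132, 1.27 and 1.077), with sums of 0.616, 0.998 and 1.09 points. These are descriptions over 3 lists that share no scale.

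Some genes of the lists held several peaks inside the gene and few or none at an annotated start. Gfra1, the receptor by which spermatogonial stem cells sense GDNF, had 6, 5 and 3 gene-body peaks through the 3 substages without a proximal call, and Stra6, the retinol transporter, had 2, 3 and 3. Rarb had 8, 4 and 1, with a single weak proximal call in pachynema (0.27). Cx3cr1, a macrophage marker, had more than any of these (12, 10 and 6) and no proximal call. Gfra1, Stra6, Rarb and Cx3cr1 were chosen here for these counts after their values were seen. Gene length was not taken into account, and peaks near the starts of other genes were not set apart. All protein-coding genes had 1.63, 1.45 and 0.666 gene-body peaks per 100 kb, so these counts are not shown to be high for genes of their length. Id4, an inhibitor of differentiation kept on in spermatogonial stem cells, had percentiles of 81.7, 91.9 and 99.7, so its rank was higher in each later list.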
